A study of Mus musculus with 6 samples.

Results

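The mitochondrial carrier family Slc25a was examined in jejunal mucosa, the inner lining of the mid small intestine, which was scraped from ISR2 mice and their wild type littermates. Members were the genes whose array annotation gave exactly 1 symbol made of Slc25a and digits, and for genes with several rows only the row that was highest on average over the 6 arrays counted. This rule found 46 members among the 19938 genes tested. It used names and overall level, not the difference between the groups.

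The ISR2 line is a transgenic C57/BL line in which SREBP2 is overactive specifically in the intestine, and the controls were C57/BL wild type mice. SREBP2, encoded by Srebf2, is the transcription factor that turns on cholesterol synthesis and uptake. Each group held 3 arrays, and all mice were 8 to 10 weeks old and ate chow. The sources used here do not name the promoter or the form of SREBP2 in the transgene. The labels number the arrays 1 to 3 in each group without saying that each came from a separate mouse, so the spread behind each p-value is that of samples and may be technical.

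Mitochondrial carriers are small proteins of the inner mitochondrial membrane, built from repeats of a shared fold, that exchange metabolites between the matrix and the cytosol. They carry citrate, malate, amino acids, nucleotides, phosphate, carnitine esters and cofactors, and so link matrix metabolism with lipid synthesis, amino acid breakdown and ATP supply in the cytosol. Slc25a1 encodes the citrate carrier. Citrate that leaves the matrix through it is split in the cytosol to acetyl-CoA, the carbon source of both fatty acids and sterols.

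Values are log2 expression values of the RMA method, called levels below, and a difference of 1 is a 2-fold change. Levels of different genes come from different probes and were not compared with each other. The expected markers of the tissue were present, and the mean level of 6 enterocyte genes was 12.4 to 12.5 in wild type and 12.3 to 12.5 in ISR2 arrays. This mean hid differences between genes. Apoa4 (-0.49) and Vil1 (-0.34) were lower in ISR2 without overlap, though neither passed an adjusted p of 0.05 in limma (0.147 and 0.29). Cdx2, Fabp1 and Sis were higher by 0.24, 0.14 and 0.14 with overlap, and Fabp2 differed by -0.03. Srebf2 rose by 1.78 ± 0.16 (SE). Its targets Hmgcs1 and Sqle rose by 3.09 ± 0.13 and 4.06 ± 0.15 (SE), so the 3 measured genes of this check went with the labels. Of 7 T cell marker genes 5 fell, with list means of 7.74 to 8.28 in wild type and 6.69 to 7.37 in ISR2 arrays. In tissue RNA, fewer cells of a type and less RNA per cell cannot be told apart.

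The RefSeq sequence upstream of Slc25a1 is shown because Slc25a1 had the largest change of the family. It covers the 250 bases before the annotated start, chr16:17928220-17928469 of GRCm38.p6, minus strand. Capitals mark the E-box CACGTG, 1 of the kinds of site that SREBP proteins can bind.
Slc25a1: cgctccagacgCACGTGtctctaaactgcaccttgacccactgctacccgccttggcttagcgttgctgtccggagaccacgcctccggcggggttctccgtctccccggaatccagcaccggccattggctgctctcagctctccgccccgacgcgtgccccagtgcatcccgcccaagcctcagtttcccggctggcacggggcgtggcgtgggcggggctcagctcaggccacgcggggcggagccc

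The E-box lay 239 to 234 bases before the start of Slc25a1. The sterol regulatory element, searched as TCACNCCAC on both strands, was not in this window. That says only that these letters are not in these bases. The same search found TCACCCCAC 137 to 129 bases before the start of Hmgcs1. Over all 32851 promoters of the table, cut to the same 250 bases, 1.05% held TCACNCCAC and 6.02% held CACGTG. The 36 members in that table had 46 promoters there, of which 1 held TCACNCCAC and 8 held CACGTG. Counted by gene, Slc25a18 alone held TCACNCCAC. CACGTG, a search chosen after the data were seen, was in 7 members: Slc25a1, Slc25a13, Slc25a14, Slc25a15, Slc25a31, Slc25a33 and Slc25a36. These include the member with the largest rise and members whose levels were lower in ISR2 mice. Slc25a44 had no entry in the table.

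Of the 46 members, 2 rose and none fell at an adjusted p of 0.05 in limma, or 4.35% of the family, where 3.02% of all genes tested were called. Slc25a1 and Slc25a44, the carrier of branched-chain amino acids, were the members that rose. Among all genes 1.79% rose and 1.23% fell. At an unadjusted p of 0.05, 9 members were counted, where 13.1% of all genes were. Of these 9, 3 were higher (background 4.73%) and 6 were lower (background 8.40%). The median log2 change of the members was -0.10, and that of all genes was -0.06. The means of 35 members were lower in ISR2 than in wild type, or 76.1%, where 62.6% of all genes were lower. With each array centred on its median, 32 members (69.6%) and 53.5% of all genes were lower. With quantile normalization, 35 members (76.1%) and 60.0% of all genes were lower.

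The 3 arrays of ISR2 did not overlap the 3 arrays of wild type for 15 members, or 32.6%, where 19.8% of all genes did not overlap. Of these, 3 were higher in ISR2 (background 5.87% of all genes) and 12 were lower (background 13.9%). Both counts depended on scaling. The higher count was 4 with median centring (background 7.42%) and 5 with quantile normalization (background 6.76%), with Slc25a28 added in both and Slc25a17 in the latter. The lower count was 6 with median centring, where 9.61% of all genes lay lower without overlap, and 10 with quantile normalization, where 12.9% did. Slc25a5, Slc25a15, Slc25a22, Slc25a36, Slc25a38 and Slc25a43 lay lower without overlap under each of these scalings. Slc25a2, Slc25a3, Slc25a27, Slc25a30, Slc25a45 and Slc25a51 overlapped after median centring. T cell markers were lower in the same arrays, as given above. Median log2 changes were also negative for Paneth and stem cell (-0.40), B and plasma cell (-0.35), pancreatic acinar (-0.33) and myeloid genes (-0.22). They were 0.16 for smooth muscle and stroma genes and 0.05 for enterocyte genes. In these 6 lists no gene passed in limma. Of the 4 measured B and plasma cell genes, Cd79a (means 5.34 in wild type and 4.74 in ISR2) and Ms4a1 (4.76 and 4.41) were dim. Their means lay under the level used below as a guide to background signal. Of the 3 measured pancreatic acinar genes, Cpa1 had an ISR2 mean (5.62) under that level. The part of any cell type in the lower members was not tested.

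**Figure D1:**
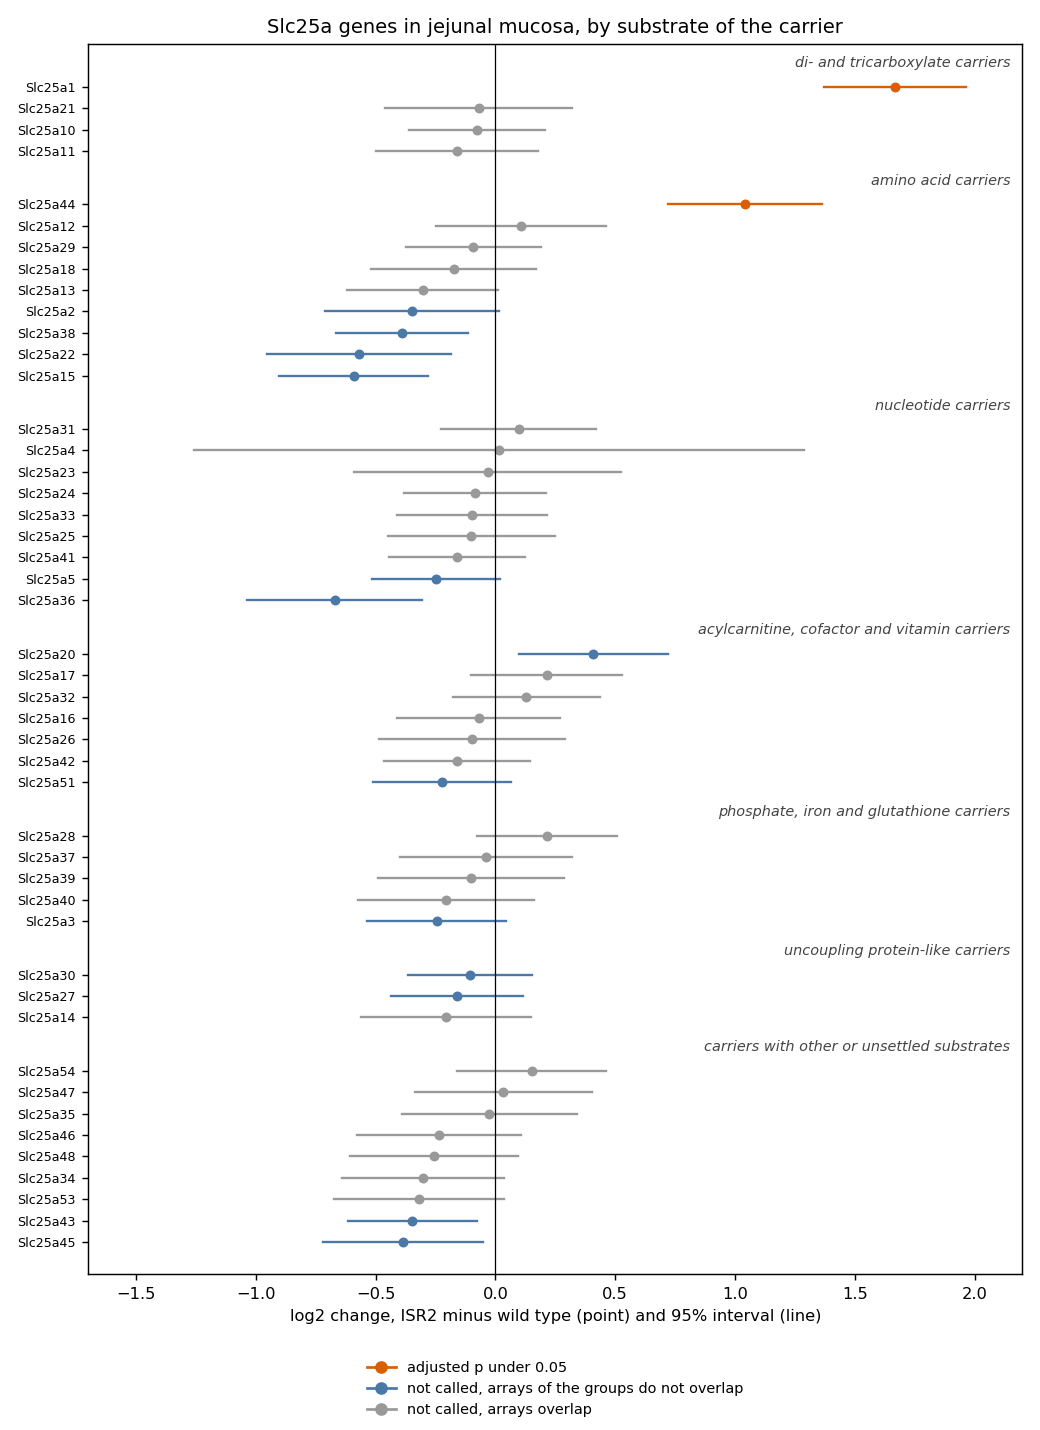
Log2 change of each of the 46 Slc25a genes, ISR2 minus wild type, as a point with its 95% interval from limma, grouped by the substrate of the carrier; 3 arrays per group. Slc25a1 (1.67) and Slc25a44 (1.04) stand to the right of all other members, and the interval of Slc25a4 is the widest (-1.26 to 1.29).

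Among the carriers of di- and tricarboxylates, 1 of 4 measured members rose and the other 3 did not pass. Slc25a1 stood at 11.09, 10.75 and 10.91 in wild type replicates 1, 2 and 3, and at 12.54, 12.64 and 12.58 in ISR2 replicates 1, 2 and 3. Every ISR2 array lay above every wild type array, and the ISR2 arrays were close together. The mean went from 10.92 ± 0.17 to 12.59 ± 0.05 (SD, n = 3), a log2 change of 1.67 ± 0.13 (SE; adjusted p = 0.000136) or 3.18-fold. Among all genes tested, 90 had a larger measured log2 change upward.

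The dicarboxylate carrier Slc25a10, which exchanges malate or succinate for phosphate, did not pass. Its levels were 10.71, 10.45 and 10.59 in wild type and 10.43, 10.57 and 10.53 in ISR2 replicates 1, 2 and 3. The groups overlapped, and the difference was -0.08 (95% interval -0.36 to 0.21; adjusted p = 0.867). Slc25a11, which exchanges 2-oxoglutarate for malate, stood at 10.20, 9.90 and 10.41 in wild type and at 10.01, 10.01 and 10.02 in ISR2 replicates. Its ISR2 arrays were nearly equal and lay within the range of the wild type arrays (difference -0.16, 95% interval -0.50 to 0.18; adjusted p = 0.738). Slc25a21, the oxodicarboxylate carrier, differed by -0.07 at a level not shown to be above background.

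Enzymes around citrate export and malate return were taken from a list of 9, of which 8 were measured. The list is wider than its name, as it also holds Acaca and Fasn of fatty acid synthesis and Idh1, which acts on isocitrate. Of the 8 measured, 5 rose, none fell and 3 did not pass, with a median log2 change of 1.91, where 1.79% of all genes rose. The list was chosen with earlier results of these data known. Cs, which makes citrate in the matrix, stood at 12.07, 12.00 and 12.18 in wild type and 12.10, 12.02 and 12.14 in ISR2 arrays. These ranges overlapped almost fully, and the difference was 0.00 (95% interval -0.27 to 0.28; adjusted p = 0.993). Acly, the cytosolic enzyme that splits exported citrate, went from 7.68, 7.88 and 8.15 to 11.40, 11.09 and 11.35, a 10.4-fold rise (log2 change 3.38 ± 0.16, SE; adjusted p = 3.6e-06). Acaca, which makes malonyl-CoA, rose 7.28-fold and Fasn, the fatty acid synthase, 10.7-fold.

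On the return side, Me1, the malic enzyme that turns malate into pyruvate with a gain of NADPH, rose 9.30-fold. Idh1, the cytosolic isocitrate dehydrogenase, which is not a step of malate return, rose 1.93-fold (0.95 ± 0.12, SE; adjusted p = 0.00222). The malate dehydrogenases did not pass. Mdh1, the cytosolic form, stood at 11.62, 11.48 and 11.37 in wild type and lower, at 11.06, 11.32 and 11.16, in ISR2 arrays without overlap (difference -0.31, adjusted p = 0.368). Mdh2, the matrix form, differed by -0.20 (adjusted p = 0.583).

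**Figure D2:**
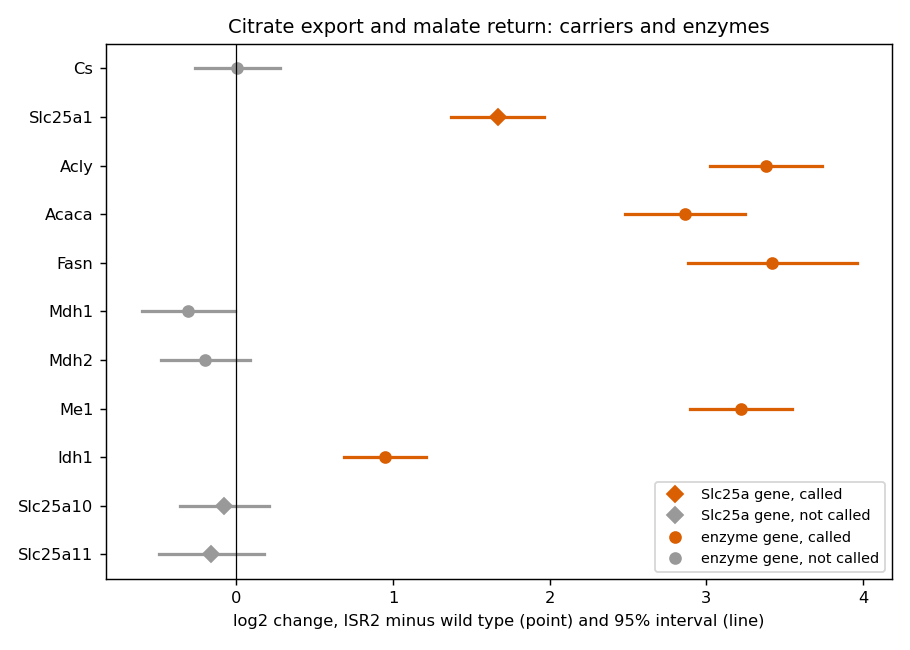
Log2 change, ISR2 minus wild type, with its 95% interval for the measured genes of the list of citrate export and malate return and for 3 dicarboxylate and citrate carriers (diamonds), 3 arrays per group. The list also holds Acaca and Fasn of fatty acid synthesis and Idh1. Slc25a1 at 1.67 lies between Cs at 0.00 and Acly at 3.38, while Slc25a10 and Slc25a11 lie near 0.

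Among the 9 measured carriers of amino acids, 1 rose, none fell and 8 did not pass, and the group's median log2 change was -0.30. At an unadjusted p of 0.05, 4 of the 9 were counted, 1 higher and 3 lower, where 13.1% of all genes were counted. The arrays did not overlap for 5 of the 9, where 19.8% of all genes did not overlap. Slc25a44 stood at 9.39, 9.06 and 9.01 in wild type replicates 1, 2 and 3 and at 10.27, 10.09 and 10.22 in ISR2 replicates. All ISR2 arrays were above all wild type arrays. The mean went from 9.15 ± 0.21 to 10.19 ± 0.10 (SD, n = 3), a log2 change of 1.04 ± 0.14 (SE; adjusted p = 0.00397) or 2.06-fold.

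Other amino acid carriers were lower without passing. Slc25a15, the ornithine carrier that serves the urea cycle and arginine metabolism, stood at 10.00, 9.92 and 9.92 in wild type and at 9.28, 9.20 and 9.58 in ISR2 arrays. The groups did not overlap, and ISR2 replicate 3 was the highest of its group. The difference was -0.59 ± 0.14 (SE; adjusted p = 0.0608). It passed in 4 of 16 alternative fits, among them the fit without ISR2 replicate 3 (-0.71, adjusted p = 0.0374).

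Slc25a22, a glutamate carrier, stood at 9.38, 9.23 and 9.06 in wild type and at 8.72, 8.91 and 8.33 in ISR2 arrays, again without overlap. Its ISR2 arrays were the more spread (SD 0.29 against 0.16), and the difference was -0.57 ± 0.17 (SE; adjusted p = 0.157). Slc25a38, which brings in glycine for heme synthesis, did not overlap between the groups and differed by -0.39 ± 0.12 (SE; adjusted p = 0.179). Slc25a2, a carrier of ornithine and related amino acids, also lay lower (-0.35), with its highest ISR2 array and lowest wild type array equal to 2 decimals, at a level not shown to be above background.

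The aspartate and glutamate carriers of the malate-aspartate shuttle did not pass. Slc25a13, or citrin, differed by -0.30 (adjusted p = 0.407) and its paralog Slc25a12, or aralar, by 0.11 (adjusted p = 0.852). Of the 4 shuttle enzymes Got1, Got2, Mdh1 and Mdh2, none passed and 1, Mdh1, had an unadjusted p under 0.05, and their median log2 change was -0.02. That median covers both directions. Got1 (0.15, without overlap) and Got2 (0.38, with overlap) were higher in ISR2, and Mdh1 (-0.31) and Mdh2 (-0.20) were lower. Slc25a18, the other glutamate carrier, and Slc25a29, which carries basic amino acids, differed by -0.18 and -0.09.

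**Figure D3:**
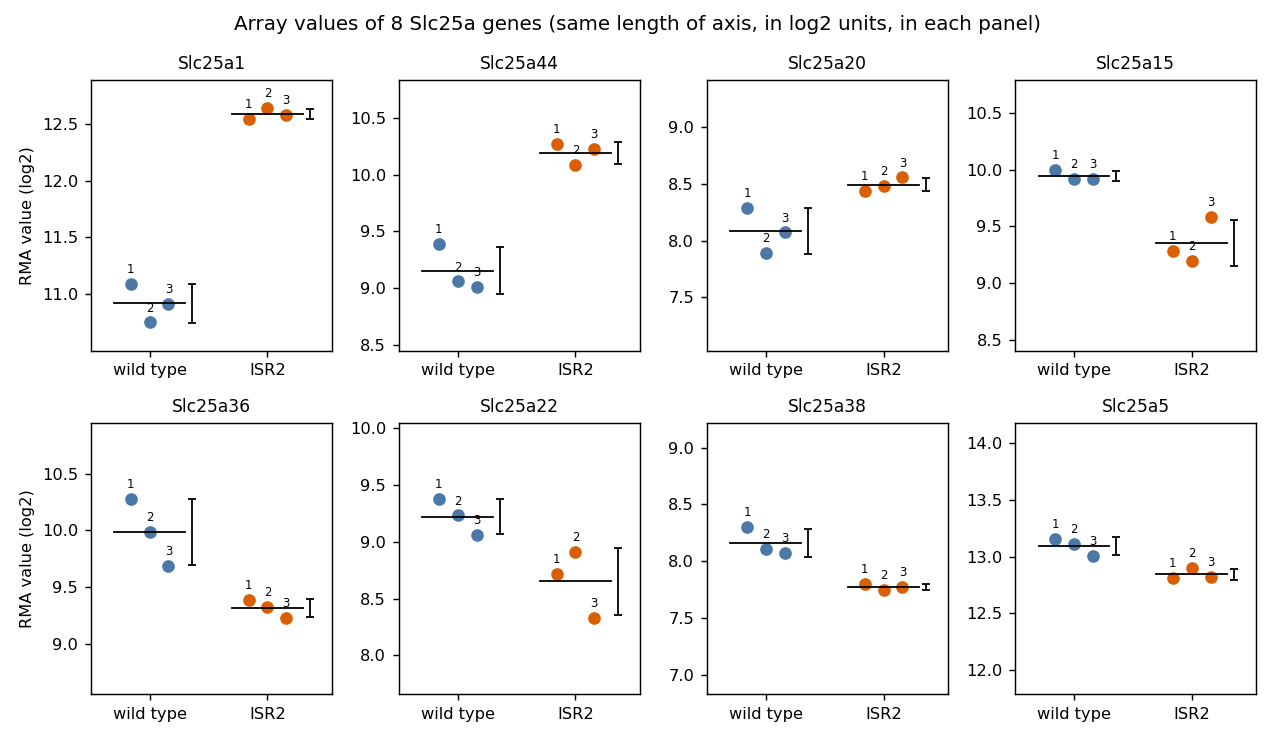
Levels (log2) of 8 Slc25a genes in each array, with the array's number, the group mean (line) and the SD over 3 arrays (bar); every panel spans the same number of log2 units. Slc25a1, Slc25a44 and Slc25a20 are higher and the other 5 lower in ISR2 without overlap, also after median centring or quantile normalization, and of the 8 Slc25a1 and Slc25a44 passed an adjusted p of 0.05.

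None of the 9 measured nucleotide carriers passed in limma, and 1 had an unadjusted p under 0.05. That was Slc25a36, a carrier of pyrimidine nucleotides with the most negative log2 change of the family. It stood at 10.28, 9.99 and 9.69 in wild type and at 9.39, 9.32 and 9.23 in ISR2 arrays. The groups did not overlap, and the wild type arrays were the more spread (SD 0.29 against 0.08). The difference was -0.67 ± 0.16 (SE; adjusted p = 0.0697). Its second probe row was lower too, at 9.24, 9.31 and 9.26 in wild type and 8.72, 8.79 and 8.92 in ISR2 arrays. That row differed by -0.46 (adjusted p = 0.101 with all 21789 rows of 1 symbol in the fit). In 4 of 16 alternative fits Slc25a36 passed, among them without wild type replicate 3 (-0.82, adjusted p = 0.0319) and with the mean of its rows (-0.57, adjusted p = 0.0462). It also passed with the replicate number as a block (-0.67, adjusted p = 0.0306).

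Slc25a5 encodes ANT2, a carrier that exchanges matrix ATP for cytosolic ADP. It stood at 13.16, 13.12 and 13.01 in wild type and at 12.81, 12.90 and 12.82 in ISR2 arrays. The groups did not overlap, but the difference was small, at -0.25 (95% interval -0.51 to 0.02; adjusted p = 0.423). Its other 2 probe rows differed by -0.26 each and did not overlap between the groups either. Slc25a5 has processed pseudogenes of close sequence, and signal from them was not told apart here.

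Slc25a4 and Slc25a23 were singled out after their values were seen, because their arrays differed most within the groups. Slc25a4 encodes ANT1, the form of the ATP and ADP exchanger that is typical of muscle. It stood at 6.21, 8.60 and 6.66 in wild type and at 6.67, 7.94 and 6.90 in ISR2 replicates 1, 2 and 3. Replicate 2 was the high array of both groups, 2.16 above the mean of the other wild type arrays and 1.15 above the mean of the other ISR2 arrays. Slc25a23, a calcium-regulated carrier of ATP-Mg and phosphate, had the same order, with 6.69, 7.57 and 6.82 in wild type and 6.67, 7.29 and 7.02 in ISR2 replicates. Its replicate 2 lay 0.82 above the mean of the other wild type arrays and 0.45 above the mean of the other ISR2 arrays. Over the other 44 members, the gap of replicate 2 to the mean of the other arrays of its group was -0.54 to 0.42. The ISR2 gap of Slc25a23 was thus just above this range and smaller in size than its lower end.

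In a list of 7 smooth muscle and stroma genes, the 4 muscle genes were high in the same arrays and the 3 stromal genes were not high in both. Des, the muscle intermediate filament gene desmin, stood at 7.45, 11.58 and 8.04 in wild type and at 7.93, 10.52 and 8.26 in ISR2 replicates. Myh11, the smooth muscle myosin heavy chain, stood at 7.50, 11.45 and 8.15 and at 8.28, 10.77 and 8.54. Acta2 and Tagln, an actin and an actin-binding protein of smooth muscle, were highest in replicate 2 of each group as well. For the whole list, 0 of 7 passed between the groups in limma (0 also at an unadjusted p of 0.05), and list means were 7.38 to 9.72 in wild type and 8.13 to 9.06 in ISR2 arrays. The collagen gene Col1a1 stood at 7.63, 8.18 and 7.89 in wild type and at 8.40, 7.82 and 8.23 in ISR2 replicates. Col1a2, another collagen gene, stood at 7.42, 7.70 and 7.61 and at 8.07, 7.38 and 7.92, and Pdgfra of fibroblasts at 6.60, 7.30 and 6.90 and at 7.68, 6.60 and 7.43. Replicate 2 was thus the highest wild type array and the lowest ISR2 array for Col1a1, Col1a2 and Pdgfra. The part of smooth muscle RNA in these levels was not tested.

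Between the groups Slc25a4 differed by 0.02 ± 0.56 (SE; 95% interval -1.26 to 1.29; adjusted p = 0.995), the widest interval of the family. Without replicate 2 of both groups it differed by 0.35 (adjusted p = 0.496). Slc25a23 differed by -0.03 ± 0.25 (SE; adjusted p = 0.977), and by 0.09 without these arrays. For both genes the direction depended on which arrays were used. Slc25a24, Slc25a25 and Slc25a41, related carriers of ATP-Mg and phosphate, differed by -0.09, -0.10 and -0.16. Slc25a33, the other pyrimidine nucleotide carrier, differed by -0.10, and Slc25a31, the ANT form of the testis, was not shown to be above background.

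**Figure D4:**
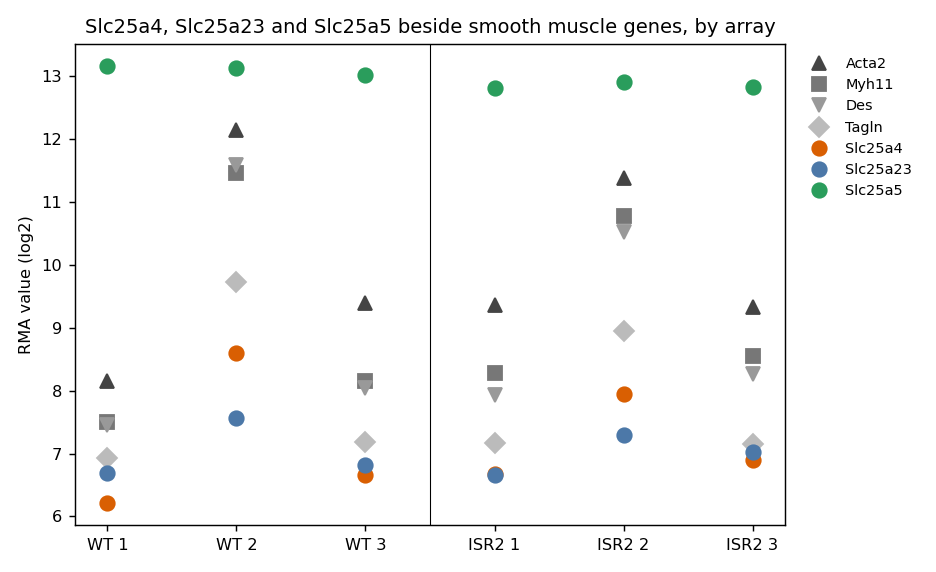
Levels (log2) of Slc25a4, Slc25a23 and Slc25a5 and of 4 smooth muscle genes in each array; WT is wild type. Slc25a4 reaches 8.60 in WT 2 and 7.94 in ISR2 2, the arrays where Acta2, Myh11, Des and Tagln are highest, while Slc25a5 stays between 12.81 and 13.16.

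Among 7 measured carriers of acylcarnitines, cofactors and vitamins, none passed in limma, and 1, Slc25a20, had an unadjusted p under 0.05. Slc25a20 exchanges acylcarnitine for carnitine, the step that brings long-chain fatty acids into the matrix for oxidation. It stood at 8.29, 7.89 and 8.07 in wild type and at 8.44, 8.48 and 8.56 in ISR2 arrays. All ISR2 arrays were above all wild type arrays, but by little for wild type replicate 1. The difference was 0.41 ± 0.14 (SE; adjusted p = 0.224). The measured enzymes of the carnitine shuttle, Cpt1a, Cpt2 and Crat, did not pass, had no unadjusted p under 0.05 (0 of 3) and differed by 0.38, 0.02 and 0.01.

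Slc25a51, the carrier of NAD, stood at 9.30, 9.12 and 9.16 in wild type and at 9.10, 8.87 and 8.94 in ISR2 arrays. The highest ISR2 array lay just under the lowest wild type array, and the difference was -0.22 (adjusted p = 0.526). Slc25a17, a carrier of the peroxisome, differed by 0.21 and Slc25a32, which carries folate or flavin, by 0.13. Slc25a42, which carries coenzyme A, Slc25a26, which carries S-adenosylmethionine, and Slc25a16 differed by -0.16, -0.10 and -0.07.

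None of the 5 measured carriers of phosphate, iron and glutathione passed in limma, and 0 had an unadjusted p under 0.05. Slc25a3, which imports the phosphate used by ATP synthase, stood at 11.04, 10.89 and 11.14 in wild type and at 10.81, 10.86 and 10.66 in ISR2 arrays. The groups were separate by a narrow margin, with a difference of -0.25 (adjusted p = 0.481). The iron carrier Slc25a28, or mitoferrin 2, stood at 9.15, 9.03 and 9.06 in wild type and at 9.44, 9.14 and 9.31 in ISR2 arrays, which overlapped (difference 0.21, adjusted p = 0.556). With median centring or quantile normalization its groups did not overlap. Slc25a37, or mitoferrin 1, and the glutathione carrier Slc25a39 differed by -0.04 and -0.10. Slc25a40, the paralog of Slc25a39, differed by -0.21, and its second row by -0.37.

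None of the 3 carriers that resemble uncoupling proteins passed in limma, and 0 had an unadjusted p under 0.05. Their differences were -0.21 to -0.10. Slc25a27 stood at 5.70, 5.80 and 5.78 in wild type and at 5.47, 5.66 and 5.66 in ISR2 arrays. Slc25a14 stood at 5.57, 5.32 and 5.05 in wild type and at 5.22, 5.14 and 4.97 in ISR2 arrays, close to the background level below. Slc25a30 did not overlap between the groups, at 6.92 ± 0.06 and 6.81 ± 0.01 (SD, n = 3), though the difference was only -0.10 (adjusted p = 0.784). The family proteins with other symbols, Ucp1, Ucp3, Mtch1 and Mtch2, did not pass (2, Ucp1 and Mtch1, at an unadjusted p of 0.05) and differed by 0.28, -0.02, 0.36 and 0.08. The wild type and ISR2 means of Ucp1 (4.67 and 4.95) and of Ucp3 (4.94 and 4.91) lay under the background level below, so neither gene was shown to be above background.

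Among 9 carriers with other or unsettled substrates none passed in limma, and 2, Slc25a45 and Slc25a43, had an unadjusted p under 0.05. Slc25a45 stood at 10.78, 10.38 and 10.74 in wild type and at 10.11, 10.36 and 10.26 in ISR2 arrays, where wild type replicate 2 nearly met ISR2 replicate 2 (difference -0.39, adjusted p = 0.294). Slc25a43 stood at 6.51, 6.46 and 6.34 in wild type and at 6.02, 6.14 and 6.10 in ISR2 arrays, without overlap (difference -0.35, adjusted p = 0.236). Slc25a46, a protein of the outer membrane with a part in mitochondrial shape, differed by -0.24. The other 6, Slc25a34, Slc25a35, Slc25a47, Slc25a48, Slc25a53 and Slc25a54, differed by -0.32 to 0.15.

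Lists of other mitochondrial genes stood beside the family. Of 11 measured genes of the import machinery that brings carriers to the inner membrane, 0 passed in limma (0 at an unadjusted p of 0.05), and the median log2 change was -0.02. Of 15 genes of the respiratory chain and ATP synthase, 0 passed (1 at an unadjusted p of 0.05, Uqcrc2), with a median of -0.09 and a range of -0.38 to 0.12. Of 5 measured genes of pyruvate entry, 0 passed (1 at an unadjusted p of 0.05, Pcx), and the median log2 change was 0.06. Pdha1, Pdhb, Dlat and Mpc1 differed by 0.41, 0.21, 0.06 and -0.04, each with overlap. Pcx, the carboxylase that makes oxaloacetate from pyruvate, differed by -0.54 ± 0.14 (SE; adjusted p = 0.0991). It stood at 8.40, 8.28 and 8.14 in wild type and lower, at 7.67, 7.94 and 7.58, in ISR2 arrays. It passed in 2 of 16 alternative fits, without ISR2 replicate 2 (adjusted p = 0.0473) and with array weights (adjusted p = 0.0121). Over all 16 fits its adjusted p reached 0.36.

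The deposited table holds no detection call. As a guide to background, the mean levels of 1023 olfactory receptor rows, genes mostly not expected to be active in jejunal mucosa, were used, and their 95th percentile was 5.63. Both group means exceeded it for 37 members. For Slc25a27 and Slc25a33 the wild type mean alone did. Neither mean did for 7 members: Slc25a2, Slc25a14, Slc25a21, Slc25a31, Slc25a41, Slc25a53 and Slc25a54. A difference in these genes may be compressed, and none of them passed.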

How the data were processed

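Total RNA was labelled with biotin and hybridised to Affymetrix arrays, 3 per group, per the labels. The deposited values are log2 values made by the authors with RMA, per the submitters' processing notes. RMA corrects background, equalises array distributions and summarises probes, which can remove a change shared by most genes. In the deposited values 62.6% of all genes still lay lower in ISR2, against 53.5% after median centring and 60.0% with quantile normalization. The sources used here do not give its version. Array medians were 6.04 to 6.19, and the number of arrays limits the precision.

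Of 35556 rows, 21789 had 1 gene symbol, 1621 several and 12146 none. The highest row per gene left 19938 genes. All 46 members matched RefSeq of GRCm38.p6 by Entrez ID, with 0 symbols changed. Groups came from titles. limma 3.58.1 in R 4.3.3 (lmFit, eBayes) was fitted to all genes without covariates, two-sided, with Benjamini-Hochberg adjustment over all genes and a threshold of 0.05; intervals are 95%. The steps were tested on simulated data. Figures used matplotlib 3.10.9 in Python 3.11.15.

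Members and lists were chosen with earlier results of these data known. The rule named called members, Slc25a1, members whose groups do not overlap and the smallest p of each substrate group. Some genes of the lists were not analysed here. Protein sequences were not used here.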

Additional observations from a re-analysis of the deposited data

How the results depend on the processing

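Alternatives were an eBayes trend or robust option, array weights, 2 scalings, a filter on dim genes, all rows, row means, the replicate number as a block, and each array left out; a fit without replicate 2 of both groups was chosen after seeing the data. Slc25a1 (1.56 to 1.76) and Slc25a44 (0.97 to 1.16) passed in all 16 fits. The count of members called was 2 or 3 in each except with array weights, where it was 6, of which 4 were lower (Slc25a15, Slc25a22, Slc25a36 and Slc25a43); it was 4 at an adjusted p of 0.10. The causes were not tested. With 1 array left out the count was 2 to 3, the member median -0.15 to -0.12, and the count of pathway genes called 5 to 6 of 48. Over all genes, 602 were called, against 1268 with array weights, 340 with all rows tested and 335 to 589 without 1 array. Slc25a15 also passed with quantile normalization and with the filter on dim genes. Slc25a4 was -0.48 with array weights and -0.46 to 0.74 without 1 array. Slc25a23 was 0.013 after median centring, -0.20 to 0.24 without 1 array and 0.092 without replicate 2 of both groups. Same-numbered arrays are not shown to be paired: their deviations from the group mean correlated at -0.02, 0.32 and 0.54 over genes. Wild type replicates 2 and 3 correlated best with the same number in ISR2, and wild type replicate 1 with ISR2 replicate 2. The deviations of a group sum to 0, so these correlations depend on each other and cannot settle the pairing. The replicate block gave 3 members, adding Slc25a36, and changed no other member's call. With 3 arrays per group, small changes of dim genes may be missed.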
